A study of Homo sapiens and Mus musculus with 28 samples.

Results

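The genes described here are 10 members of the human drug-disposition machinery measured in 28 RNA sequencing libraries of the colorectal adenocarcinoma line DLD-1: the efflux pumps ABCB1, ABCC1, ABCC2, ABCC3 and ABCG2, the glucuronosyltransferases UGT1A1, UGT1A6 and UGT1A10, and the aldo-keto reductases AKR1C2 and AKR1C3. They were chosen by name, all 10 had a row in every file, and they are 10 of the 60357 genes shared by the 3 annotation releases the files use. Poly(A) RNA was measured in 8 groups around the transcription factor GATA6. In the degron cells (genotype GATA6-AID-IAA7), GATA6 carries a tag through which auxin (IAA, 500 uM) sends the protein to degradation. Their 4 groups of 3 libraries were the control at 0 h, auxin for 12 h, auxin for 12 h followed by 24 h without it (washout), and auxin for 72 h. The 0 h control carries the tag as well and its labels name auxin with a time of 0 h. The 2 culture groups of 3 libraries were WT DLD-1 and GATA6 CRISPR KO DLD-1, and the 2 xenograft groups of 5 libraries were flank tumours grown from control or KO DLD-1 cells in athymic nude mice that were 5 to 6 weeks old at the start. The labels speak of degron clones without giving their number, do not say whether the KO is 1 clone, and do not say whether libraries of a group came from separate cultures or which of the mice gave a tumour, so the p-values below measure the spread between libraries, which may be technical. A time-matched auxin control without the degron was not analysed here.

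Drug disposition works in steps. Phase 1 enzymes, among them cytochromes P450 and carbonyl-reducing aldo-keto reductases, change functional groups. Phase 2 enzymes attach a polar group such as glucuronic acid, sulfate or glutathione, and ATP-driven pumps of the ABC family carry drugs and conjugates out of the cell. In gut epithelium ABCB1 and ABCG2 sit on the luminal membrane and return their substrates to the lumen, whereas ABCC3 sits on the basolateral side. ABCB1 (P-glycoprotein, MDR1) is the textbook pump of multidrug resistance, and UGT1A1 conjugates bilirubin and SN-38, the active form of irinotecan.

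The groups had library totals between 14569850 and 36500654 assigned counts. Levels are given as CPM (counts scaled to the TMM-corrected library total) within a system and as TPM (which also scales for transcript length) between genes, and the systems were processed as separate sets, so a level set across systems carries no test. All 12 colon epithelium markers had counts in each of the 8 groups. Their sum was 14000 to 15100 CPM in degron control and 15400 to 16400 CPM at 72 h. It was 19200 to 19500 CPM in WT and 22900 to 23900 CPM in KO cultures. Control tumours held 8740 to 10400 CPM and KO tumours 13000 to 18300 CPM. Single markers went both ways. At 72 h 4 of 9 tested rose and 4 fell. In KO cultures 6 of 11 rose and 4 fell, and in KO tumours 7 of 12 rose and 4 fell. The part of these differences in the changes below was not tested. GATA6 RNA itself was 73.2 ± 6.08 CPM (SD, n = 5) in control and 35.1 ± 5.97 CPM in KO tumours, and 74.2 ± 17.2 CPM in WT and 21.9 ± 3.38 CPM in KO cultures (n = 3), so the KO libraries still held GATA6 reads. In degron cells GATA6 RNA averaged 46.6 CPM in control and 45.2 CPM at 12 h (log2 change -0.05 ± 0.07 SE, edgeR adjusted p = 0.784). At 72 h it averaged 34.1 CPM and was lower than in control (log2 change -0.45 ± 0.07, edgeR adjusted p = 7.4e-06). RNA levels do not check the loss of GATA6 protein in the KO or the degron cells. Haemoglobin transcripts exceeded 100 counts in 4 degron libraries, replicates 2 and 3 at 12 h and replicates 1 and 3 of the washout, and values without these libraries are given beside calls at 12 h or washout that they end. Without them the 12 h and the washout group hold 1 library each, whose spread is assumed to be that of the other groups, so those values are no replicate check. Changes were tested with edgeR's quasi-likelihood test, p-values were adjusted over all genes tested by the Benjamini-Hochberg method, and a gene is said to rise or fall where the adjusted p was below 0.05.

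**Figure D1:**
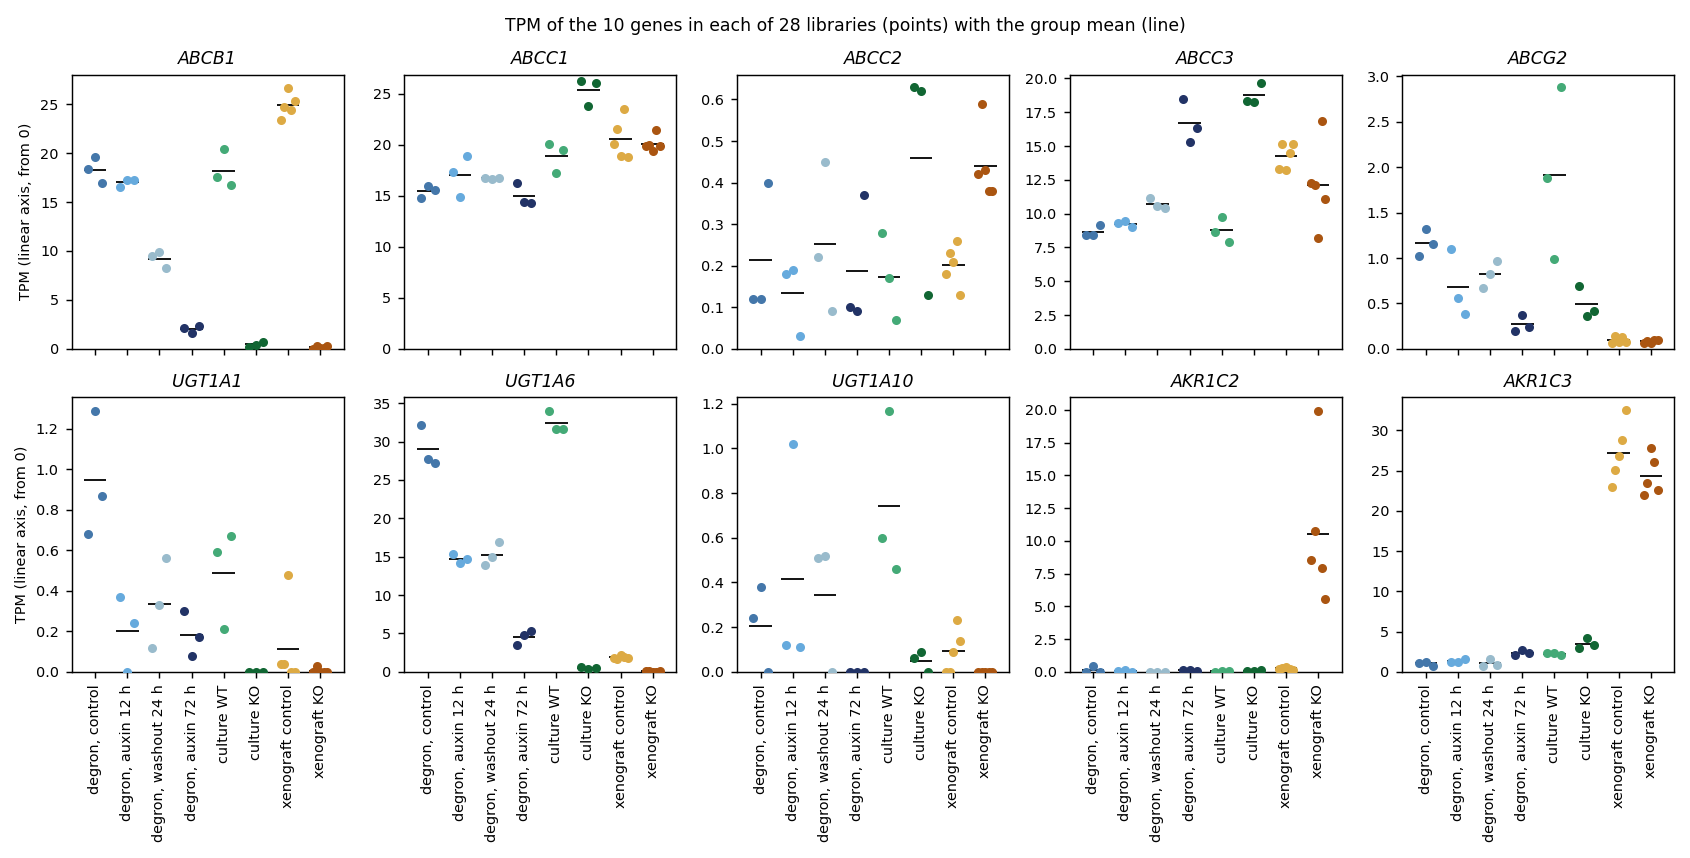
TPM of the 10 genes on linear axes from 0, one point per library in the 8 groups, with the group mean as a line. ABCB1 and UGT1A6 are near 0 in both KO groups, and AKR1C2 reaches 5.58 to 19.96 TPM in KO tumours and at most 0.41 TPM in any other library.

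The sequences bear on how far the members can be told apart. The UGT1A genes on chromosome 2 (plus strand, GRCh38) each have their own first exon and splice it to the same exons 2 to 5. The last 30 bases of exon 1 and the first 30 of exon 2, which starts at position 233767034, are shown for the 3 UGT1A members, with the shared exon in capitals, from GENCODE 29 transcripts. Their first exons lie at chr2:233692866-233693865 for UGT1A6, chr2:233760248-233761151 for UGT1A1 and chr2:233636454-233637377 for UGT1A10.
UGT1A6: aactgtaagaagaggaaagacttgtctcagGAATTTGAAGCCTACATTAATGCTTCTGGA
UGT1A1: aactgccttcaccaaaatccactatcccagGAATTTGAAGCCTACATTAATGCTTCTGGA
UGT1A10: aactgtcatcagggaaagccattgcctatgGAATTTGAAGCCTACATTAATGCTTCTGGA
Only reads that touch the lower-case side name one of these genes. The coding sequence after exon 1 was identical in all 3 over 735 bases, and that of exon 1 was 58.8% to 60.6% identical between pairs. How the expected counts divide reads from the shared exons among the genes is therefore an estimate, and the counts of all UGT1A genes were also summed and tested as one row.

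The aldo-keto reductases pose a like problem. AKR1C2 (minus strand) and AKR1C3 (plus strand) lie within the AKR1C cluster on chromosome 10. The coding sequence of AKR1C2 differed from that of AKR1C1 at 19 of 969 positions (98.0% identity) and from that of AKR1C3 at 85 (91.3% identity). The first 90 coding bases show how few positions separate them, with capitals where AKR1C1 or AKR1C3 differs from AKR1C2.
AKR1C2: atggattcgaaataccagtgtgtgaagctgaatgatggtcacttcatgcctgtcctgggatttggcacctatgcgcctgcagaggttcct
AKR1C1: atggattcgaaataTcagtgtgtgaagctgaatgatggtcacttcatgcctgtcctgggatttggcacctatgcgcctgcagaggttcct
AKR1C3: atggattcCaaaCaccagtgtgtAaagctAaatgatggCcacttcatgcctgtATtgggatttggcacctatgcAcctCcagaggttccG
AKR1C1 differed at 1 of these positions and AKR1C3 at 10, so AKR1C2 counts are uncertain against AKR1C1 and better separated from AKR1C3.

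Among the pumps tested, ABCB1 had the largest fold changes at 72 h and in both knockouts. In the degron cells its libraries held 55.7, 59.4 and 50.9 CPM in the control, 52.0, 51.5 and 46.7 CPM at 12 h, and 4.55, 4.24 and 4.27 CPM at 72 h, with 26.6, 28.1 and 26.6 CPM in the washout libraries. Control and 12 h libraries overlapped, and the washout and 72 h libraries each lay apart from all others. At 12 h the log2 difference from control was -0.14 ± 0.06 (SE, adjusted p = 0.188). After washout ABCB1 was lower than at 12 h by 0.89 on the log2 scale (1.85-fold, adjusted p = 2.3e-09 from edgeR) and lower than in control 2.04-fold (adjusted p = 4.8e-10). After 24 h without auxin ABCB1 was thus lower than at 12 h and had not returned toward control. Without untreated cells of that time, auxin removal and time in culture cannot be told apart. Between the 1 washout and the 1 12 h library without haemoglobin the log2 difference was -0.89. The 72 h libraries were lower still, and every library left out in turn kept the log2 change from control between -3.72 and -3.62.

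ABCB1 fell further in the knockouts. WT cultures held 55.8, 57.6 and 52.4 CPM, and KO cultures 0.210, 0.780 and 0.581 CPM, or 42 counts over the 3 libraries. That is 101-fold lower (log2 change -6.66 ± 0.17 SE, adjusted p = 1.9e-11, edgeR). Control tumours ranged from 90.6 through a median of 93.7 to 103.6 CPM and KO tumours from 0.132 through 0.412 to 1.23 CPM (147-fold lower, log2 change -7.20 ± 0.23, adjusted p = 2.0e-10). No KO library overlapped a control library in either system. The fall at 72 h was smaller than the KO fall in culture by 2.99 ± 0.23 on the log2 scale (adjusted p = 3.2e-10), and the KO falls in tumours and cultures differed by -0.52 ± 0.50 (adjusted p = 0.485).

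Promoter windows from RefSeq (GRCh38.p14, the 250 bases before a listed start, gene strand) were searched on both strands for the GATA motif (AGATAA, its variant ending in G, and both of these beginning with T in place of A), the antioxidant response element core (TGACNNNGC) and the dioxin response element core (GCGTG). Windows were found for 7 of the 10 members (all but ABCC1, ABCC3 and UGT1A10). For ABCB1 both windows are shown, as the pump with the largest fold changes at 72 h and in both knockouts. The one at the upstream start, chr7:87713296-87713545 (minus strand), held 1 GATA motif, in capitals, and the one at the downstream start, chr7:87600885-87601134 (minus strand), held 1 dioxin response element core. Of these starts, the downstream one is that of the GENCODE transcript used here, and its window held no GATA motif.
ABCB1 upstream: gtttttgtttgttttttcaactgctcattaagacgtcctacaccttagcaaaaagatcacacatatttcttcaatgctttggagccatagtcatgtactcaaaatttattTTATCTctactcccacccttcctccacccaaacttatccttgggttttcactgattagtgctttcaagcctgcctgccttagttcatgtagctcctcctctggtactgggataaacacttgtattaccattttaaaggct
ABCB1 downstream: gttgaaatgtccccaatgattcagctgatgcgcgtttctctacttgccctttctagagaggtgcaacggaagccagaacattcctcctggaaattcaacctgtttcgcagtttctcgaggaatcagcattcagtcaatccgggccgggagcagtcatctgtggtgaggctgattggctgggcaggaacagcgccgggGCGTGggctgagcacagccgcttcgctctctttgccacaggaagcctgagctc
Over all 35116 RefSeq windows of this length, 22.3% held a GATA motif, 10.9% the antioxidant core and 32.2% the dioxin core. Of the members whose windows are not shown, UGT1A1 and AKR1C3 had a GATA motif in every window. ABCG2 and ABCC2 had none in any window. Each window printed here held 1 match, so no matches overlap in them. A match describes letters and is not a binding site.

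ABCC3, which exports glucuronides and bile acids, moved in the opposite direction to ABCB1 in cultured cells. Its degron libraries held 19.4, 19 and 20.6 CPM in control, 18.3, 18.9 and 19.3 CPM at 12 h and 45.8, 40.0 and 39.8 CPM at 72 h, with 22.1, 21.3 and 21.9 CPM in the washout libraries. The 72 h libraries lay above all others, a rise of 1.09 ± 0.07 on the log2 scale (2.13-fold, adjusted p = 2.9e-12, edgeR). The washout libraries all lay above the 12 h libraries, with a log2 difference of 0.21 ± 0.08 (adjusted p = 0.053). In culture the level was 21.9, 21.8 and 20.1 CPM in WT and 51.2, 50.5 and 49.8 CPM in KO (2.37-fold higher, adjusted p = 2.5e-10). The tumours did not share this rise. Controls ranged from 48.6 through 50.3 to 55.2 CPM and KO tumours, which overlapped them, from 31.0 through 42.3 to 57.1 CPM (log2 change -0.26 ± 0.12, adjusted p = 0.080). Without KO tumour replicate 4, the highest, that change was -0.39 with an adjusted p of 0.0024. The difference between the KO changes in tumours and in cultures was -1.49 ± 0.18 on the log2 scale (adjusted p = 6.3e-06). The 72 h and the culture KO changes differed by -0.15 ± 0.10 (adjusted p = 0.229).

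ABCG2 (breast cancer resistance protein), another luminal pump, was a low-level transcript that fell in cultured cells. The degron libraries held 2.61, 2.34 and 2.01 CPM in control, 1.38, 1.16 and 1.13 CPM at 12 h and 0.574, 0.501 and 0.719 CPM at 72 h, with 1.70, 1.33 and 2.07 CPM in the washout libraries. The 12 h fall of 0.93 ± 0.25 on the log2 scale (adjusted p = 0.022, edgeR) rests on 77 counts in 3 libraries, ended in 5 of 6 fits that left out 1 library (all but control replicate 3) and was -0.75 with an adjusted p of 0.384 when the 12 h group was its 1 library without haemoglobin. The 72 h libraries lay below all others (3.86-fold below control, adjusted p = 9.8e-07). WT cultures held 4.24, 2.92 and 3.87 CPM and KO cultures 1.43, 0.881 and 1.29 CPM, 3.09-fold lower (adjusted p = 4.8e-05). The 72 h and culture KO changes differed by -0.32 ± 0.37 on the log2 scale (adjusted p = 0.515). In tumours ABCG2 was at 0.207 to 0.412 CPM in controls and 0.198 to 0.351 CPM in KO, too low to pass the filter on low counts, and the KO change in tumours was less negative than in cultures by 1.51 ± 0.45 (adjusted p = 0.017, from the fit that holds both systems). That call ended without the filter on low counts (1.51, edgeR adjusted p = 0.056).

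ABCC1 and ABCC2 completed the pumps. ABCC1 (MRP1), a broadly expressed exporter of glutathione conjugates, held 66.7 to 109 CPM in all 28 libraries. It fell at 72 h by 0.18 ± 0.06 on the log2 scale (adjusted p = 0.016), a call that ended with total counts in place of TMM (-0.05, adjusted p = 0.518) and without control replicate 2 or 72 h replicate 2 or 3, and rose in KO cultures by 0.24 ± 0.05 (adjusted p = 8.4e-04). These changes differed by -0.41 ± 0.08 (adjusted p = 8.2e-05), and the tumour groups overlapped (log2 change 0.04 ± 0.06, adjusted p = 0.569). ABCC2 (MRP2), the canalicular exporter of conjugated bilirubin in liver, was scarce. It had 2 to 11 counts per degron library, under the filter, and 0.336 to 0.685 CPM in WT against 0.540 to 1.22 CPM in KO cultures (log2 change 0.46 ± 0.44, adjusted p = 0.387). In tumours it rose from a range of 0.588 to 1.103 CPM to a range of 1.65 to 2.63 CPM, with no overlap (2.28-fold, log2 change 1.19 ± 0.23, adjusted p = 4.2e-04). The tumour and culture changes differed by 0.74 ± 0.47 (adjusted p = 0.266), so the effects were not shown to differ.

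**Figure D2:**
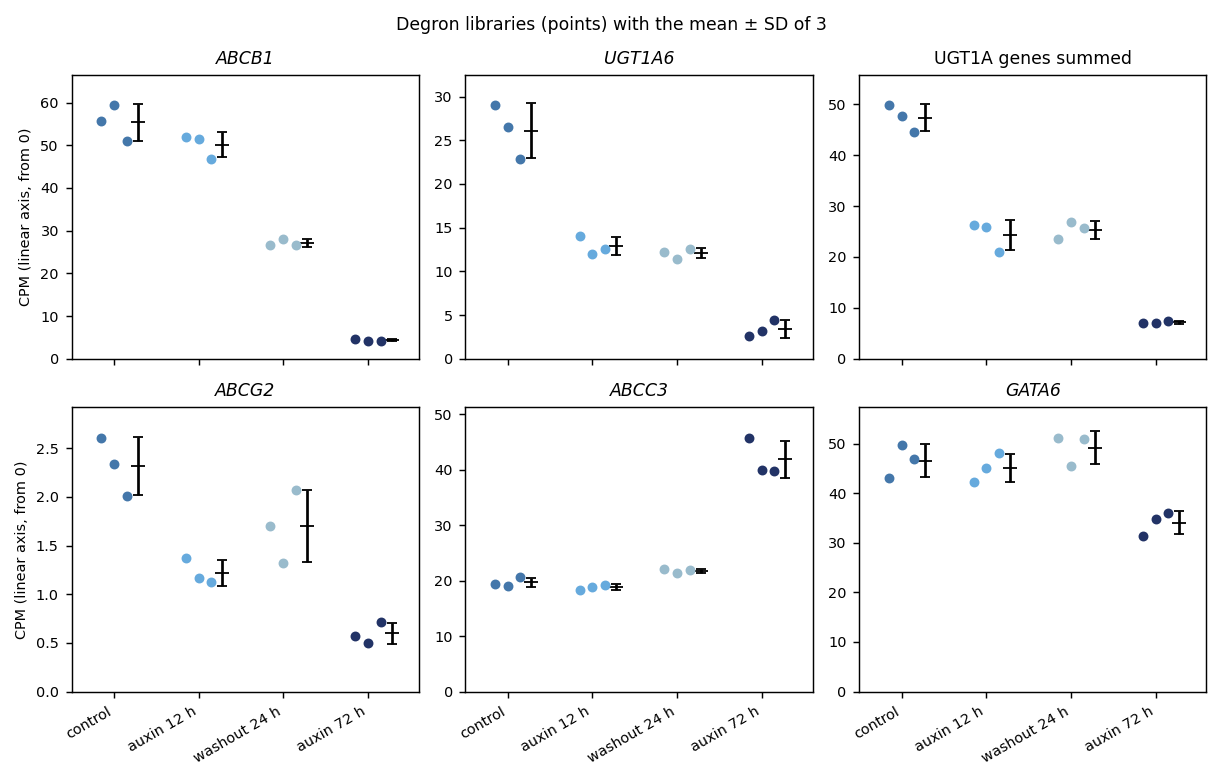
CPM of 4 members, the summed UGT1A counts and GATA6 in the degron libraries (points) on linear axes from 0, with the mean and SD of 3 to the right of each group. ABCB1 is near its control level at 12 h and lower after washout, UGT1A6 is lower at 12 h and at a like level after washout, and ABCC3 is higher at 72 h.

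UGT1A6, which glucuronidates small planar phenols, was the most abundant UGT1A row by group mean, though not in every library. UGT1A5 took more of the UGT1A counts in 72 h replicate 1 (40.4% against 36.5%) and in KO culture replicate 3 (80.6% against 19.4%). For UGT1A6 the degron libraries held 29.03, 26.5 and 22.8 CPM in control, 14.1, 12.0 and 12.6 CPM at 12 h and 2.55, 3.19 and 4.47 CPM at 72 h, with 12.2, 11.5 and 12.6 CPM in the washout libraries. Unlike ABCB1, it lay wholly below control by 12 h (log2 change -1.02 ± 0.12, adjusted p = 5.0e-06, edgeR). After washout it differed from 12 h by -0.09 ± 0.13 (adjusted p = 0.678) and stayed below control by 1.11 ± 0.12 (adjusted p = 4.5e-06). WT cultures held 34.2, 33.0 and 32.0 CPM and KO cultures 0.516, 0.419 and 0.185 CPM, 90.2-fold lower (log2 change -6.49 ± 0.17, adjusted p = 1.8e-13). The fall at 72 h was smaller than the culture KO fall by 3.56 ± 0.32 (adjusted p = 8.1e-08). In tumours the control level itself was low, 1.81 to 2.39 CPM or 1.66 to 2.22 TPM, against 31.6 to 34.1 TPM in WT cultures. KO tumours held 3.54 counts over 5 libraries (0 to 0.117 CPM, no overlap, log2 change -5.48 ± 0.43, adjusted p = 5.3e-08). The KO changes in tumours and cultures differed by 1.04 ± 0.90 (adjusted p = 0.463), but by 2.93 (adjusted p = 2.63e-08) on log2(TPM + 0.5), a scale that compresses changes of low genes.

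Summing the 9 UGT1A genes left these results standing. The sum was 47.4 ± 2.66 CPM (SD, n = 3) in degron control, 24.4 ± 2.89 at 12 h, 25.4 ± 1.78 after washout and 7.15 ± 0.312 at 72 h. It fell 1.94-fold at 12 h (adjusted p = 6.0e-09) and 6.61-fold at 72 h (adjusted p = 5.9e-18), differed by 0.06 ± 0.08 on the log2 scale between washout and 12 h (adjusted p = 0.704), and was 1.87-fold below control after washout (adjusted p = 5.2e-08). In cultures it fell from 41.0 ± 0.200 to 0.922 ± 0.0648 CPM (45.7-fold, adjusted p = 6.3e-15) and in tumours from 2.53 ± 0.624 to 0.0517 ± 0.0509 CPM (n = 5, 44.1-fold, adjusted p = 7.8e-08). The KO changes of the sum in tumours and cultures differed by 0.08 ± 0.84 (adjusted p = 0.983), with a 95% interval from -1.57 to 1.73 that does not show them to be alike. UGT1A6 took 77.9% to 82.9% of the sum in WT cultures but 51.2% to 58.2% in degron control, where UGT1A5 took 26.5% to 29.6% against 8.54% to 8.96% in WT cultures. The degron files use another annotation release than the culture and xenograft files, and its part in these shares was not tested.

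**Figure D3:**
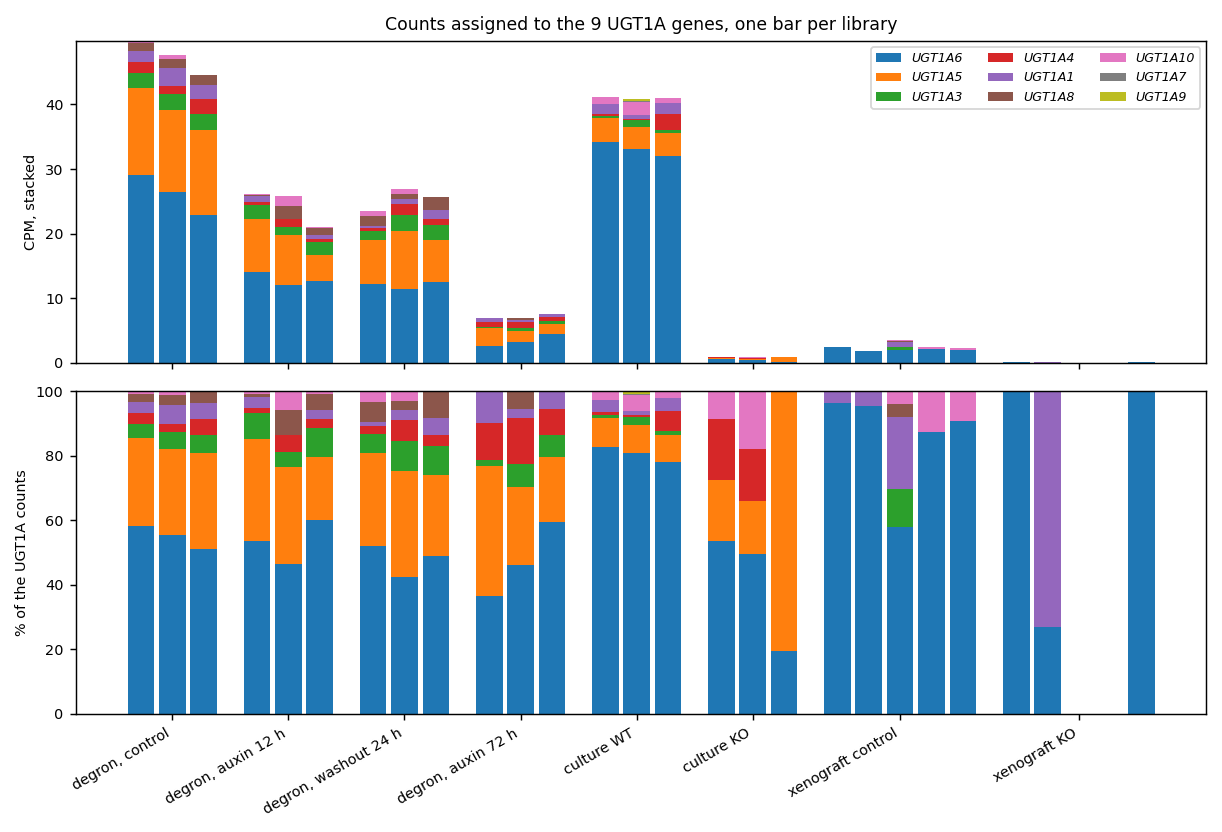
Counts assigned to the 9 UGT1A genes, one bar per library, as stacked CPM (top, from 0) and as a percentage of the sum (bottom). UGT1A6 is the largest part in WT cultures, UGT1A5 takes a larger part in the degron libraries than in WT cultures, and the 2 KO tumours with no bar had no UGT1A count.

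UGT1A1 and UGT1A10 were low throughout, and their counts include an estimated part of the reads from the shared exons. UGT1A1 was 1.73, 2.85 and 2.19 CPM in degron control and 0.937, 0 and 0.563 CPM at 12 h (log2 change -2.30 ± 0.75, adjusted p = 0.101). At 72 h it was 0.678, 0.179 and 0.405 CPM and had fallen (5.23-fold, adjusted p = 0.016), a call that ended without control replicate 2 or 72 h replicate 2 or 3 (adjusted p = 0.054, 0.057 and 0.054). In WT cultures it had 77.05 counts and in KO cultures 0 counts over 3 libraries, which is at least 32.1-fold lower with 3 counts over the group as the floor (adjusted p = 1.8e-05). Control tumours held 24.96 UGT1A1 counts, of which 19.63 were in replicate 3, and KO tumours 1.46. UGT1A10, a glucuronosyltransferase of the intestine, fell in KO cultures from 1.09, 2.05 and 0.795 CPM to 0.0838, 0.150 and 0 CPM (16.1-fold, adjusted p = 6.3e-05). At 72 h it had 0 counts against 18.76 in control (at least 8.31-fold lower, adjusted p = 0.153), and the control libraries themselves ranged from 0 to 0.565 CPM.

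The UGT1A6 window at the start used by its GENCODE transcript, chr2:233692640-233692889 (plus strand), is shown because UGT1A6 is known as a target of the xenobiotic receptor AHR and of NRF2. It held 1 antioxidant core, in capitals, and neither of the other motifs, and the second UGT1A6 window held 1 dioxin core.
UGT1A6: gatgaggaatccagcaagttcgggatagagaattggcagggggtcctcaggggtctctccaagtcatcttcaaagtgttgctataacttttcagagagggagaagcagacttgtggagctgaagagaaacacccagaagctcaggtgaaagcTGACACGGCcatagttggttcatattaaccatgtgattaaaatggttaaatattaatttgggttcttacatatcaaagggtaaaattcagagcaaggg

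**Figure D4:**
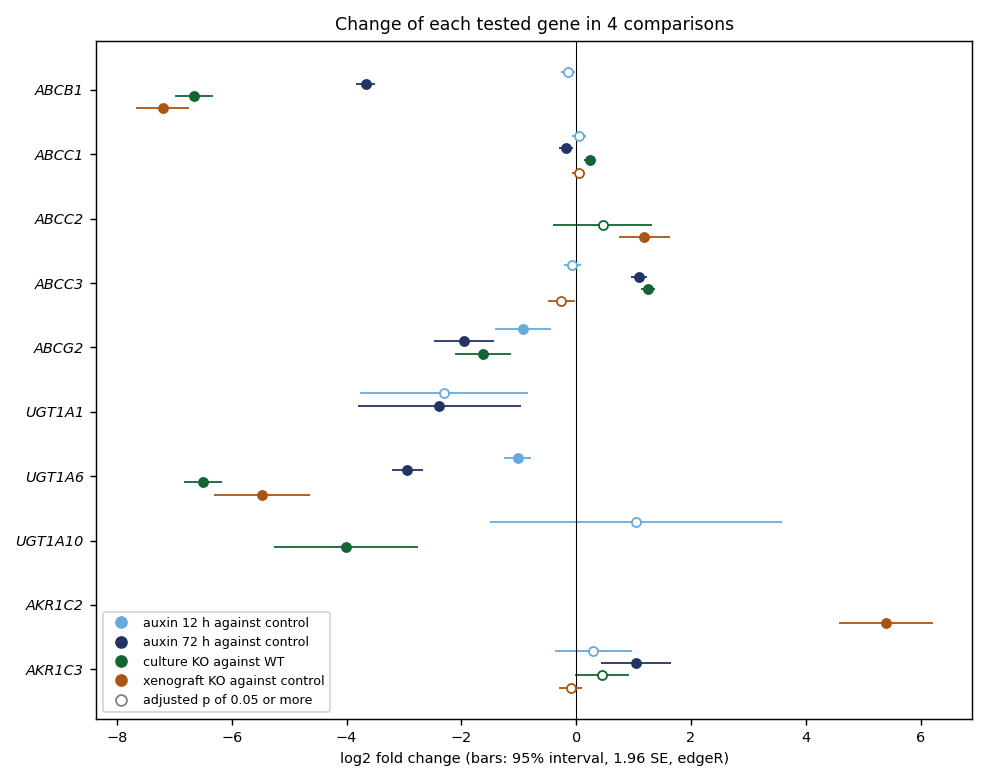
log2 fold change of each tested member (points) in 4 comparisons with 95% intervals, filled where the adjusted p was below 0.05. Members not tested, or with 0 counts in the treated or KO group, have no point. ABCB1 and UGT1A6 lie far to the left in both KO comparisons, and ABCC3 lies to the right at 72 h and in KO cultures only.

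AKR1C2 and AKR1C3 reduce ketosteroids and prostaglandins as well as drugs, and both are known NRF2 targets in human cells. AKR1C3 was 0.837, 0.974 and 0.558 CPM in degron control and 1.38, 1.93 and 1.64 CPM at 72 h, a rise of 1.04 ± 0.31 on the log2 scale (adjusted p = 0.0061, edgeR). In cultures it was 1.85, 1.87 and 1.63 CPM in WT and 1.97, 2.98 and 2.33 CPM in KO (log2 change 0.45 ± 0.24, adjusted p = 0.121). Tumours of both groups held far more of it than cells, 23.0 to 32.5 TPM in controls and 21.9 to 27.8 TPM in KO, against 0.71 to 4.26 TPM over all 18 libraries of cultured cells. The tumour groups overlapped (log2 change -0.09 ± 0.10, adjusted p = 0.451), and their change differed from that in cultures by -0.53 ± 0.22 (adjusted p = 0.078).

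AKR1C2 was near 0 in all groups but the KO tumours. The 5 KO tumours held 11.9, 14.8, 31.7, 11.4 and 9.39 CPM, and control tumours 0.234 to 0.450 CPM. No libraries overlapped, and the rise was 42.1-fold (log2 change 5.40 ± 0.42, adjusted p = 8.2e-07). Replicate 3 of the KO tumours stood highest with 580.8 counts, and leaving out each tumour in turn kept the log2 change between 4.98 and 5.55. Its near-identical neighbour AKR1C1 rose from 0.147 to 0.486 CPM to 2.15 to 7.19 CPM (12.6-fold, adjusted p = 3.1e-06). AKR1C2 counts were 4.37 to 5.00 times those of AKR1C1 in KO tumours, and the division of reads between the pair is uncertain. The AKR1C sum rose 1.84-fold (log2 change 0.88, adjusted p = 0.0019), a call that ended on log2(TPM + 0.5), where the change was 0.35 (adjusted p = 0.051). AKR1C3 made up 96.2% to 97.9% of the summed counts in control tumours and 35.8% to 61.8% in KO tumours. KO and WT cultures held 3 AKR1C2 counts each, so no fold is given there. The test that the KO effect was larger in tumours gave 5.70 ± 2.01 on the log2 scale (adjusted p = 0.043), a call that ended in 10 fits that each left out 1 library (adjusted p of up to 0.338) and without the filter on low counts.

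**Figure D5:**
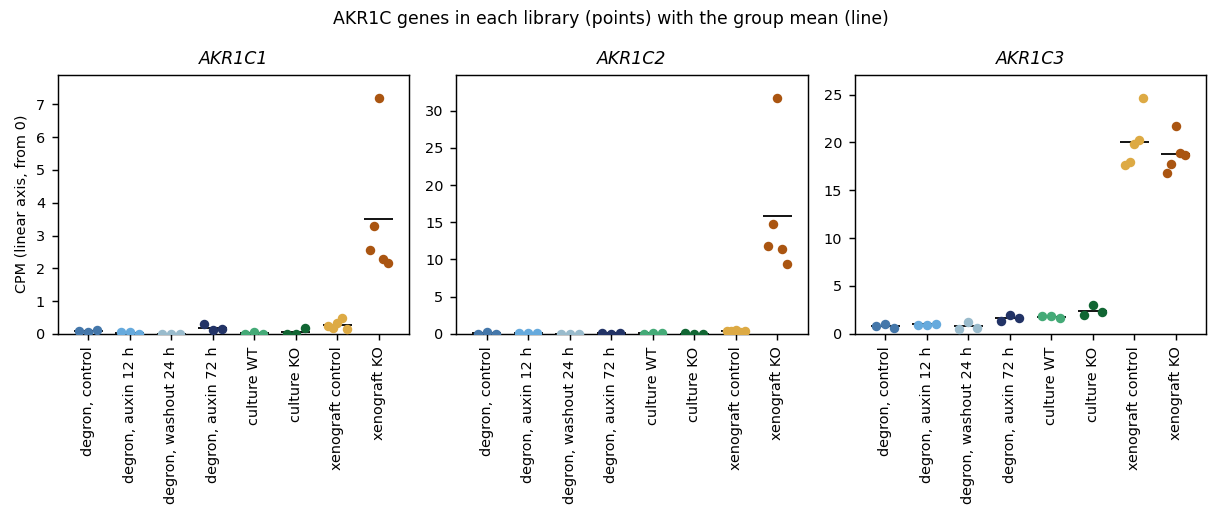
CPM of 3 AKR1C genes in each library (points) on linear axes from 0, with the group mean as a line. AKR1C1 and AKR1C2 are high in KO tumours, where replicate 3 is highest at 7.19 and 31.7 CPM, while AKR1C3 is at 16.8 to 24.6 CPM in tumours of both groups.

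The labels give the tumours' organism as mouse while all gene identifiers are human, and how mouse reads were handled is not given in the sources used here. Sums of markers of other cell types are given for each group. The 8 fibroblast markers summed to 6.44 to 13.5 CPM in control and 7.98 to 21.4 CPM in KO tumours, and the 6 endothelial markers to 1.17 to 1.97 and 5.67 to 7.82 CPM. Single markers went different ways: COL1A1 rose 3.07-fold and PDGFRB fell 8.72-fold in KO tumours, and the endothelial sum was mostly VWF (1.52 and 6.38 CPM), which also rose 1.70-fold in KO cultures. Several markers had no count, with DCN and PDGFRA, and CDH5, CLDN5 and PECAM1, at 0 in controls and PDGFRA, and CLDN5 and KDR, at 0 in KO. The 10 leukocyte markers summed to 4.86 to 10.3 and 2.40 to 9.73 CPM, and the 8 hepatocyte markers to 58.5 to 155 and 43.2 to 69.7 CPM. Of the hepatocyte list, APOB, APOC3 and TTR were at 0 in both tumour groups. In cultures the hepatocyte sum was 5.69 to 9.55 CPM in WT and 23.5 to 26.8 CPM in KO, and the leukocyte sum 4.77 to 6.07 and 23.8 to 25.0 CPM, with APOC3 and TTR of the hepatocyte list at 0 in both. At 72 h the hepatocyte sum was 7.87 to 11.3 CPM against 2.95 to 3.6 CPM in degron control, and the endothelial sum 9.41 to 10.1 against 3.6 to 4.63 CPM, with CDH5, KDR, PECAM1 and TEK at 0 at 72 h. Their part in the changes above was not tested. In all these bulk samples fewer cells of a type and less RNA per cell cannot be told apart.

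The AKR1C2 window at the start of its GENCODE transcript, chr10:5003858-5004107 (minus strand), is shown because AKR1C2 rose in KO tumours, while KO and WT cultures each held 3 counts in all and were not tested. It held 1 GATA motif, in capitals, and neither of the other motifs.
AKR1C2: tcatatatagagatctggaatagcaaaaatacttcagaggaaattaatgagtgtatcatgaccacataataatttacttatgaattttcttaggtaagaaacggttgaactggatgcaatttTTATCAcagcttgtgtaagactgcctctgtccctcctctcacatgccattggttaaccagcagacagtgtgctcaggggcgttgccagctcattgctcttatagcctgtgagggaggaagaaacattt

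Read against the genome-wide background, the members' counts were as follows. At 12 h, 2 of 8 tested members changed, both lower (UGT1A6 and ABCG2), where 7.39% of the 14029 genes tested changed (4.04% higher and 3.35% lower). At 72 h 7 of 8 changed, 5 lower and 2 higher, against 57.8% of genes (28.3% higher and 29.5% lower), and between 72 h and 12 h 6 of 8, 4 lower and 2 higher, against 55.4% (26.8% higher and 28.6% lower). Of those 6, AKR1C3 (log2 change 0.74, adjusted p = 0.039) lost its call in 5 of 6 fits that left out 1 library, with DESeq2, with no filter and without the haemoglobin libraries (adjusted p = 0.135), ABCC1 lost it with total counts and on TPM, and ABCG2 lost it on TPM. After washout 1 of 8, ABCB1, was lower than at 12 h, against 17.4% (9.27% higher and 8.15% lower), and 2 of 8, ABCB1 and UGT1A6, were lower than in control, against 5.00% (2.64% higher and 2.36% lower). In KO cultures 7 of 9 changed, 5 lower and 2 higher, against 59.1% of 13740 genes (30.4% higher and 28.7% lower). In KO tumours 4 of 7 changed, 2 in each direction, against 56.1% of 14996 genes (28% higher and 28.1% lower). The members' median log2 change was -2.17 at 72 h, -1.63 in KO cultures and -0.09 in KO tumours, with all-gene medians of 0.00, 0.02 and -0.01. At 72 h and in KO cultures these medians count UGT1A1, UGT1A6 and UGT1A10 separately, though these genes share exons. UGT1A10 had 0 counts at 72 h. The members were chosen with earlier results of these data known, so their medians are no test of the set. The 72 h and culture KO effects differed for 4 of 9 members, against 44% of genes (22.4% with a positive and 21.6% with a negative difference), and the tumour and culture KO effects for 3 of 10, against 27.0% (12.6% positive and 14.4% negative). Where more than 50% of all genes changed, a majority of changed members is no result about the members. Total counts in place of TMM moved the all-gene median by 0.12 at 72 h and 0.11 in KO cultures, with 5412 genes higher and 2911 lower at 72 h (3964 and 4140 with TMM) and 5091 and 3095 in KO cultures (4173 and 3950).

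The rest of the ABC family moved in both directions, as genes at large did. Of all genes tested, 57.8% changed at 72 h, 59.1% in KO cultures and 56.1% in KO tumours, with similar shares higher and lower. The list counts here and in the paragraphs that follow are descriptions, and no list was tested against these shares. A list with counts near them is no result about that list. Of 14 tested ABC transporters besides the members, 4 rose and 5 fell at 72 h and 5 rose and 4 fell in KO cultures, and in KO tumours 5 of 16 rose and 4 fell, with list medians of -0.16, 0.31 and 0.10 on the log2 scale. ABCC4, an exporter of cyclic nucleotides, fell in all 3, from 103 ± 7.76 to 70.2 ± 1.07 CPM at 72 h (log2 change -0.56, adjusted p = 5.9e-09), by 0.52 in KO cultures and by 0.65 in KO tumours. ABCG1, a sterol exporter, rose 15.8-fold in KO cultures, from 0.490 to 7.97 CPM (adjusted p = 7.4e-10). Among drug-carrying solute carriers and related genes, 3 of 15 rose and 8 fell at 72 h, 5 of 16 rose and 6 fell in KO cultures, and 4 of 16 rose and 8 fell in KO tumours. MVP, the major vault protein, rose 1.75-fold at 72 h (adjusted p = 4.1e-12) and 2.50-fold in KO cultures, and SLC29A1, which imports nucleosides and their drug analogues, fell by 0.88 on the log2 scale at 72 h (adjusted p = 1.6e-11).

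Other genes of conjugation moved in both directions, as genes at large did. UGDH, which makes the glucuronic acid donor UDP-glucuronate, fell by 0.48 at 72 h (239 to 171 CPM, adjusted p = 2.6e-09), by 1.21 in KO cultures (266 to 115 CPM, adjusted p = 1.1e-11) and by 1.17 in KO tumours (186 to 82.3 CPM, adjusted p = 1.8e-07). Of its list of 6 cofactor and reversal genes, 2 fell at 72 h, 2 rose and 1 fell in KO cultures, and 1 rose and 2 fell in KO tumours. UGP2, which makes UDP-glucose, rose in KO tumours by 0.42 (adjusted p = 2.8e-04), and GUSB, which removes glucuronic acid, rose in KO cultures by 0.34 (adjusted p = 1.9e-04) and fell in KO tumours by 0.16 (adjusted p = 0.020). Of 5 other tested UDP-glucuronosyltransferases, 5 fell at 72 h, but 4 of them (UGT1A3, UGT1A4, UGT1A5 and UGT1A8) share the exons above, and UGT8, a ceramide galactosyltransferase, was the 5th (3.19-fold, adjusted p = 8.9e-11). PAPSS2, which makes the sulfate donor, fell at 72 h (157 to 65.4 CPM, adjusted p = 5.0e-16) and in both knockouts. At 12 h it fell by 0.24 (adjusted p = 0.0024), a call that ended with the 1 library without haemoglobin (-0.20, adjusted p = 0.149). SULT1C2, a sulfotransferase, rose 2.92-fold at 72 h (adjusted p = 2.7e-10), and of the sulfation list 4 of 9 rose and 2 fell at 72 h, 2 of 10 rose and 4 fell in KO cultures, and 2 of 10 rose and 2 fell in KO tumours. Of the glutathione transferases 1 of 11 rose and 5 fell at 72 h, 4 of 12 rose and 4 fell in KO cultures, and 6 of 13 rose and 6 fell in KO tumours, with GSTM4 2.16-fold lower at 72 h (adjusted p = 1.1e-13). Of 5 acetyl- and methyltransferases 4 rose in KO cultures, 3 rose and 1 fell in KO tumours, and 1 rose and 1 fell at 72 h. Among the other aldo-keto and carbonyl reductases, 7 of 10 fell and 1 rose in KO cultures, whereas 5 of 12 rose and 1 fell in KO tumours.

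NRF2, the regulator of antioxidant genes to which UGT1A6, ABCC3 and the AKR1C genes are commonly assigned, had 21 listed targets. At 72 h 12 of 21 fell and 1 rose (list median -0.18), in KO cultures 17 fell (median -0.48), and in KO tumours 10 fell and 4 rose (median -0.23). FTL, ferritin light chain, fell 2.83-fold in KO cultures (adjusted p = 2.7e-11) and ME1, malic enzyme, fell 2.77-fold in KO tumours (adjusted p = 4.5e-10). NQO1, a quinone reductase, was lower after washout than in control (919 to 685 CPM, adjusted p = 8.6e-06). EPHX1, microsomal epoxide hydrolase, rose 1.99-fold in KO tumours (adjusted p = 1.3e-07), where AKR1C2 rose as well. Among the sensors, AHR, the dioxin receptor, rose 1.44-fold at 12 h (adjusted p = 1.4e-04), 2.09-fold at 72 h (adjusted p = 4.1e-10) and 2.25-fold in KO tumours (adjusted p = 1.6e-08), but in KO cultures its log2 change was -0.09 ± 0.05 (SE, adjusted p = 0.116). CYP1A1, its textbook target, rose 9.18-fold at 72 h (1.54 to 14.2 CPM, adjusted p = 2.9e-13) and 20.3-fold in KO cultures (0.162 to 3.39 CPM, adjusted p = 3.1e-08) and had a log2 change of -0.28 ± 0.24 at 12 h (1.25 against 1.54 CPM, adjusted p = 0.570). No CYP1A1 change is given here for KO tumours. HNF4A and CDX2, gut transcription factors, were lower at 12 h by 0.38 (adjusted p = 0.0012) and 0.31 (adjusted p = 9.9e-05). At 72 h the log2 change from control was -0.09 for HNF4A (edgeR adjusted p = 0.252) and -0.34 for CDX2 (adjusted p = 7.8e-07). In KO cultures they were lower by 0.78 and 0.90, and in KO tumours by 0.30 and 0.38.

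Genes with the pattern most like each member were ranked by Pearson correlation of log2(TPM + 1), centred within each system, over the 28 libraries, which share their group structure, so the values describe and carry no p. Nearest to ABCB1 among 14225 genes were ACAA2, a mitochondrial thiolase (r = 0.989), GSTM3, a glutathione transferase (0.984), and PAPSS2 (0.98). UGT1A6 was nearest to SLC7A7 (0.972), a cationic amino acid transporter, IGFL2 (0.965) and VPS9D1-AS1 (0.954), and ABCC3 to EXOC1 (0.917), OPTN (0.912) and OSBP2 (0.911). AKR1C2 was nearest to SLC6A14 (0.974), an amino acid transporter, CALML3-AS1 (0.962) and CALML3 (0.961). The last pair lies on chromosome 10 as AKR1C2 does, CALML3 at chr10:5524009-5526771 and AKR1C2 at chr10:4987400-5018031. For AKR1C3 the highest values were 0.859 (PIH1D1), 0.858 (TRIM21) and 0.855 (GUCD1), for ABCC1 0.86 (MTOR), 0.856 (FAT1) and 0.833 (ITPRIPL2), and for ABCG2 0.852 (SBSPON) and 0.812 (HPGD, which inactivates prostaglandins) beside 1 unnamed gene. UGT1A1 was nearest to ABCG2 (0.754), and UGT1A10 and ABCC2 had no gene above 0.724 and 0.697.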

How the data were processed

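RNA of 28 libraries was sequenced. Per the submitters' processing notes, reads were handled with Trim Galore 0.6.10, STAR and RSEM on hg38. The authors deposited an expected count per gene, estimated from aligned reads and rounded to whole numbers here, and TPM values per gene, used for levels and 1 alternative. The role and order of each tool, and the handling of mouse reads in tumours, are not given in the sources used here. RSEM-type estimates divide reads shared by the UGT1A or AKR1C genes, so these genes were also summed.

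Genes passed filterByExpr (minimum count 10) and were tested with edgeR 4.0.16 (quasi-likelihood, robust, TMM; R 4.3.3) in each system and, for differences between effects, in joint fits, with Benjamini-Hochberg adjustment over all genes and a threshold of 0.05. Alternatives were DESeq2 1.42.0, total counts, limma 3.58.1 on log2(TPM + 0.5), no filter, a replicate block, each library left out, and no libraries above 100 haemoglobin counts. The steps were tested on simulated data. For a group at 0 counts, 3 counts in the whole group served as the floor of a fold, and intervals of counts cover counting error only. Library totals of 14569850 to 36500654 limit the precision of genes with few counts. The members and gene lists were chosen with earlier results of these data known. Most list genes named are among the 3 smallest p-values of their list in a comparison, at a mean of at least 2 CPM. Outside this rule are UGT1A3, UGT1A4 and UGT1A8, named for their shared exons, and cell type markers named for having no count. No pair of replicate libraries agreed within sampling noise (lowest chi-square per degree of freedom 2.23). Some markers are not reported here.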

Additional observations from a re-analysis of the deposited data

Results flagged for a closer look

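Among groups of 5 tumours, 23 sets of values were tested for a library that stands apart, a test that flags about 1 in 20 by chance. The highest KO tumour stood apart for ABCC1 (replicate 5, 108.9 CPM), UGT1A1 (replicate 2, 0.0549 CPM, the only one with a count), AKR1C2 (replicate 3, 31.7 CPM) and the AKR1C sum (replicate 3, 60.6 CPM). The highest control tumour stood apart for UGT1A1 (replicate 3, 0.795 CPM).

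The 72 h effect and the culture KO effect differed by a test of the difference for ABCB1 (2.99 on the log2 scale), ABCC1 (-0.41), UGT1A6 (3.56), the UGT1A sum (3.34) and UGT1A1 (5.50, where KO cultures were at 0 counts, so the fitted size is no bound). The UGT1A sum in this test left out UGT1A3 and UGT1A5, whose identifiers differed between the degron and culture annotation releases. UGT1A5 alone took 26.5% to 29.6% of the full sum in degron control. The KO effect in tumours and in cultures differed for ABCC3 (-1.49), ABCG2 (1.51) and AKR1C2 (5.70, from 3 counts in each culture group). The ABCG2 and AKR1C2 calls ended without the filter on low counts. No explanation of these differences was tested.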

How the results depend on the processing

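ABCB1 at 72 h, after washout and in both KO comparisons, UGT1A6 and the UGT1A sum at 12 h, 72 h, after washout against control and in both KO comparisons, ABCC3 at 72 h and in KO cultures, and AKR1C2 in KO tumours kept direction and call under every alternative that gave a value. Genes changed at 12 h numbered 1037 with 3 libraries a group, but 327 on TPM, 333 without the haemoglobin libraries, which leaves 1 library each at 12 h and washout with the spread of the other groups assumed, and 606 to 1170 with 1 library left out; members changed were 2, but 1, 1 and 1 to 2. Genes changed between washout and 12 h were 2444, but 1064, 334 and 1414 to 2266, and between washout and control 701, but 276, 179 and 321 to 896. Members whose KO effect differed between tumours and cultures were 3, but 5 with total counts, 7 on TPM, 1 with no filter.

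Directions turned for values that did not pass the test: on TPM for UGT1A6 (0.046, washout against 12 h), ABCC1 in KO tumours (-0.0263), ABCG2 (0.11) in the 72 h against culture KO effect, ABCC2 (-0.054) and the AKR1C sum (-0.23) in the tumour against culture KO effect. The called UGT1A1 difference between the 72 h and culture KO effects turned to -0.12 on TPM. The UGT1A sum gave -0.0352 to 0.11 between washout and 12 h with 1 library left out, and between tumour and culture KO effects -0.0656 with DESeq2, -0.0246 with total counts and -0.32 to 0.37 with 1 library left out. The causes were not tested.

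Genes higher and lower were 567 and 470 at 12 h, but 726 and 359 with total counts and 240 and 87 on TPM. Between 72 h and 12 h they were 3762 and 4007, but 4880 and 2892 with total counts and 3639 and 2430 on TPM. On TPM they were 4355 and 2406 at 72 h, 4863 and 1684 in KO cultures (all-gene median 0.19), and 1975 and 2953 for the 72 h against culture KO effect (3258 and 3140 with TMM counts). For the tumour against culture KO effect 2024 were higher and 2304 lower, but 953 and 4749 on TPM (median -0.24) and 1507 and 3130 with total counts.

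Same-numbered replicates did not deviate together over all genes (correlations of -0.19 to 0.07 over 26 pairs), which does not settle whether they were paired. With the replicate block, 1202 genes changed at 12 h (1037 without it) and 7723 in KO cultures (8123 without it). With the block, ABCC3 in KO tumours had a log2 change of -0.29 (edgeR adjusted p = 0.035) and UGT1A10 at 72 h an adjusted p of 0.0014. Depth limits UGT1A1, UGT1A10, ABCC2, tumour ABCG2 and cultured AKR1C2, each with few counts.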
